A study of Coturnix japonica with 20 samples.

Results

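PLIN2, which encodes the lipid droplet coat protein perilipin 2, and FABP2, which encodes a fatty acid carrier, were followed as 2 of the 16066 genes measured in the liver of Japanese quail embryos. Both were picked by symbol with their levels in these libraries already known. Their levels and fold changes in the sex and treatment comparisons are therefore given as a description, without a test. PLIN2 (gene identifier 107306168) lies on the Z chromosome and FABP2 (107313553) on chromosome 4 in the NCBI gene table of the Coturnix japonica 2.1 assembly. Both passed the filter on low counts.

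The libraries came from the left lobe of the liver at embryonic day 9. Before incubation, each egg had received 10 µl of solution into its air cell, either the solvent dimethyl sulfoxide (DMSO) alone or 3.33 µg of ethinylestradiol (EE2) per g of egg. EE2 is a synthetic estrogen, used in contraceptive pills. There were 6 EE2 females, 5 solvent females, 4 EE2 males and 5 solvent males, 20 libraries in all, and the study asks how the liver's response to estrogen depends on sex. Nothing in the labels says whether embryos shared parents, so the p-values below measure the spread between these embryos.

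A liver cell stores neutral fat in lipid droplets, each bounded by a layer of phospholipid into which coat proteins insert. Perilipin 2 is the main coat protein of droplets outside fat tissue; it shields the fat from lipases and is degraded when it is not bound to a droplet. FABP2 carries fatty acids through the watery interior of the cell and in mammals is best known from the absorptive cells of the small intestine, while FABP1 is the major carrier of the liver. In birds males have a pair of Z chromosomes and females have 1, and most Z genes are only partly compensated for that difference.

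Total estimated counts, the reads that the authors' software assigned to coding sequences, were 15298506 in solvent female 9 and between 26776988 and 32119466 in the other libraries. Values below are CPM, counts brought to a common library size by TMM scaling (the trimmed mean of M-values). EE2 male 3 stood apart from the other libraries on the first principal component, which held 29.4% of the variance. Hepatocyte genes such as ALB and APOB were abundant in every library. The summed level of the 8 measured hepatocyte markers was 82607.1 to 146755.2 CPM in EE2 females, below the 185637.7 to 287264.8 CPM in solvent females, and it was 154632.3 to 244004.7 CPM in EE2 males and 136125.8 to 212157.3 CPM in solvent males. ALB, TF and APOB made up most of this sum, with medians over the libraries of 107674.8, 34419.0 and 24834.1 CPM. The sum is thus weighted towards ALB, whose EE2 effect in females was -1.61 on the log2 scale, while that of APOB was 1.47. In bulk tissue fewer cells of a type and less RNA per cell cannot be told apart.

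PLIN2 was lowest in solvent females and highest in solvent males, and the EE2 groups lay between them. In EE2 females (replicates 1, 2, 7, 8, 9 and 10) its levels were 160.3, 197.8, 194.4, 233.1, 257.1 and 169.5 CPM, against 130.4, 125.4, 145.1, 159.4 and 197.1 CPM in solvent females (replicates 3, 5, 6, 9 and 10). In EE2 males (replicates 3, 4, 5 and 6) it had 255.2, 199.8, 290.2 and 231.8 CPM, against 267.1, 447.9, 369.0, 291.6 and 386.6 CPM in solvent males (replicates 1, 2, 4, 7 and 8). Of the EE2 females, 3 of 6 lay above every solvent female, and of the EE2 males, 3 of 4 lay below every solvent male, so that the treated and solvent ranges overlapped in both sexes. These levels rest on 2425 to 14839 estimated counts per library.

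Group means of PLIN2 were 202.0 ± 37.1 CPM in EE2 females (SD, n = 6) and 151.5 ± 28.7 CPM in solvent females (n = 5). They were 244.3 ± 38.1 CPM in EE2 males (n = 4) and 352.4 ± 73.4 CPM in solvent males (n = 5). In the fit, the EE2 effect was 0.42 on the log2 scale in females (SE 0.154), a level 1.33 times that of solvent females. In males it was -0.53 (SE 0.171), a level 0.693 times that of solvent males. The mean of both sexes with equal weight was -0.06 (SE 0.114), with the effects in the sexes of opposite sign. The female effect minus the male effect was 0.94 (SE 0.23), and it lay between 0.84 and 1.06 when each library was left out in turn.

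For scale, the edgeR quasi-likelihood test called 10.2% of the 13501 genes tested as higher and 10.1% as lower in EE2 females at an adjusted p under 0.05. It called 2.24% as higher and 1.03% as lower in EE2 males, with median effects over all genes of 0.01 in females and -0.01 in males. The female effect was called above the male effect for 0.259% of genes and below it for 0.8%. PLIN2 was chosen on these contrasts, so nothing is read from its place among these genes. Without EE2 male 3 the EE2 effect on PLIN2 was 0.42 in females and -0.55 in males.

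**Figure D1:**
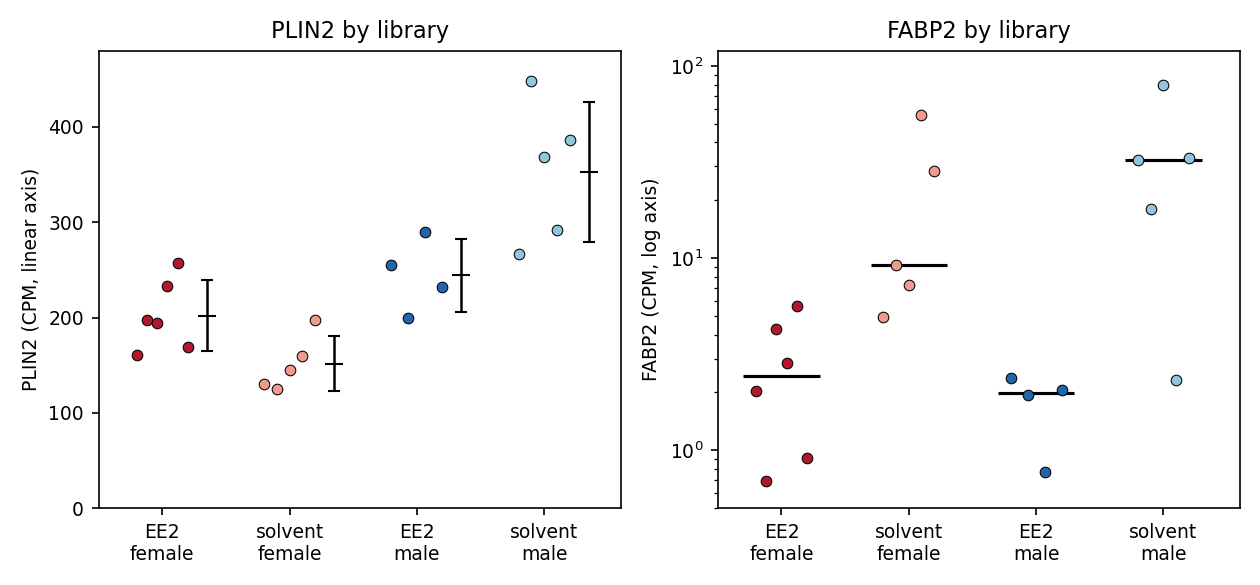
PLIN2 (left, linear axis) and FABP2 (right, log axis) in CPM, with each point a library and the 4 groups along the horizontal axis. Bars beside the PLIN2 points give the mean ± SD and the lines among the FABP2 points give the median; PLIN2 spans 125.4 to 197.1 CPM in solvent females and 267.1 to 447.9 CPM in solvent males with no overlap, while FABP2 medians are 2.44 and 1.99 CPM in EE2 females and EE2 males, against 9.26 and 32.6 CPM in solvent females and solvent males.

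The sex difference of PLIN2 was small with EE2 and large with solvent. Among EE2 embryos the female level was 0.827 times the male level, -0.27 on the log2 scale (SE 0.162), and 4 of 6 EE2 females lay below every EE2 male. Among solvent embryos it was 0.43 times, -1.22 on the log2 scale (SE 0.162), and all 5 solvent females lay below all 5 solvent males. All solvent females lay below all solvent males for 1.92% of all genes tested, a share that was not taken for Z genes alone. The order of the group means was solvent males, EE2 males, EE2 females and solvent females, and each group overlapped the next in that order.

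Of the genes on the Z chromosome, where PLIN2 lies, 604 were tested. Their median female minus male difference was -0.43 in EE2 embryos (quartiles -0.79 and -0.15) and -0.41 in solvent embryos (quartiles -0.76 and -0.13). The other 12897 genes had medians of 0.02 in EE2 embryos and 0.00 in solvent embryos. Of the 604 Z genes, the edgeR test called females lower for 235 with EE2 and for 178 with solvent. Over all 13501 genes, Z genes included, it called 574 lower with EE2 (4.25%) and 190 with solvent (1.41%). Most of the solvent calls were thus Z genes.

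The median EE2 effect over all tested Z genes was 0.01 in females and 0.00 in males. PLIN2 was chosen on these values, so its own -0.27 with EE2 and -1.22 with solvent are set beside the Z medians as a description, and its rank among Z genes is not used.

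**Figure D2:**
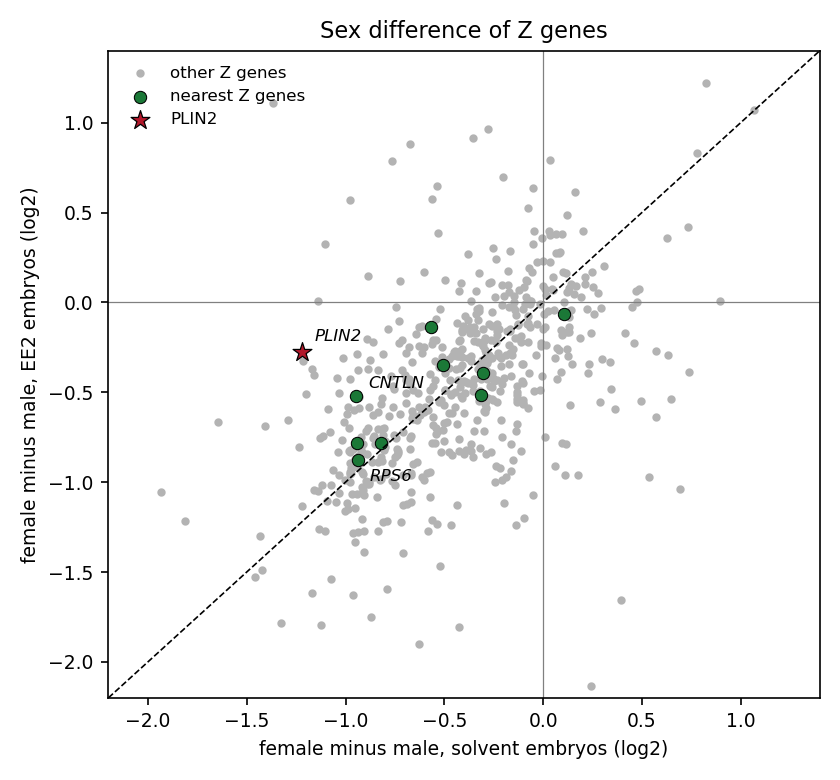
Female minus male difference of Z genes (log2) with EE2 embryos on the vertical axis, solvent embryos on the horizontal axis and equality on the dashed line; 8 genes lie outside the axes. PLIN2 (star) is at -0.27 with EE2 and -1.22 with solvent, above the line. Its neighbour RPS6 lies near the line at -0.88 with EE2 and -0.94 with solvent. Other neighbours lie on both sides, such as CNTLN above it (-0.52 with EE2, -0.95 with solvent) and DENND4C below it (-0.52 and -0.31).

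Like Z genes in general, the genes beside PLIN2 were on the whole lower in females in both treatments. Of the 5 genes on either side, 9 were tested, and 3 of these were called lower in each treatment. Over all 604 tested Z genes, 235 were called lower with EE2 and 178 with solvent, beside 4.25% and 1.41% of all genes. The median female minus male difference of the 9 was -0.52 in EE2 embryos and -0.57 in solvent embryos. Both lie within the quartiles of the tested Z genes given above. RPS6, a protein of the small ribosomal subunit, was lower in females by -0.88 with EE2 (SE 0.0805, adjusted p = 5.89e-07, edgeR) and by -0.94 with solvent (SE 0.0806, adjusted p = 3.36e-07, edgeR). LOC107306164, the nearest gene on one side, was at -0.78 with EE2 and -0.94 with solvent, and edgeR called both differences. CNTLN, which encodes the centriole protein centlein, had -0.52 with EE2 (adjusted p = 0.171, edgeR) and was called lower in females with solvent (-0.95, adjusted p = 0.0252).

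None of these 9 neighbours was called for an EE2 effect in males by edgeR, limma voom or DESeq2, 0 had an unadjusted p under 0.05, and their male effects ran from -0.22 to 0.44. In females MLLT3, a reader of acylated histones, was called higher (0.47, SE 0.159, adjusted p = 0.0423, edgeR), a call that limma voom did not make, and the other 8 were not called. DENND4C, the nearest gene on the other side of PLIN2, had EE2 effects of -0.26 in females and -0.06 in males (adjusted p = 0.0683 and 0.852, edgeR). No neighbour was called for a difference between the female and the male effect by any of the 3 tools (0 at an unadjusted p under 0.05). The neighbours' differences ran from -0.2 to 0.43. PLIN2 was chosen on these contrasts, so its own 0.94 is not compared with that range.

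PLIN2 is annotated with 2 coding sequences, which the gene sum does not distinguish. The major one held 96.4% of the PLIN2 estimated counts over all libraries and the minor one 3.57%, or 141.4 to 629.3 estimated counts per library. The share on the major sequence averaged 96.7% ± 1.14 in the 6 EE2 females and 94.6% ± 1.16 in the 5 solvent females (mean ± SD). It averaged 97.1% ± 0.505 in the 4 EE2 males and 96.5% ± 0.877 in the 5 solvent males.

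Solvent females had the lowest shares of the major sequence, from 92.8% to 95.8%. The difference between EE2 females and solvent females was 2.09 percentage points (two-sided exact permutation p = 0.0216, adjusted p = 0.0476 over 4 comparisons). Solvent females differed from solvent males by -1.89 points (exact permutation p = 0.0238, adjusted p = 0.0476). The EE2 effect in males was 0.595 points (exact permutation p = 0.254, adjusted p = 0.339), and EE2 females differed from EE2 males by -0.402 points (exact permutation p = 0.581). Both calls were lost without 15 of the 20 libraries, each left out in turn, with adjusted p up to 0.0952, while the differences stayed between 1.64 and 2.47 points and between -2.18 and -1.45 points. Both calls use the same 5 solvent females. The minor sequence held 155.18 to 340.93 estimated counts in EE2 females and 141.38 to 253.1 in solvent females, before scaling for depth. Each share is taken of the PLIN2 sum on which the gene was chosen. These p-values are therefore not independent of that choice and are not read as a separate result. The software splits reads that fit both sequences, and its part in these shares was not tested.

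**Figure D3:**
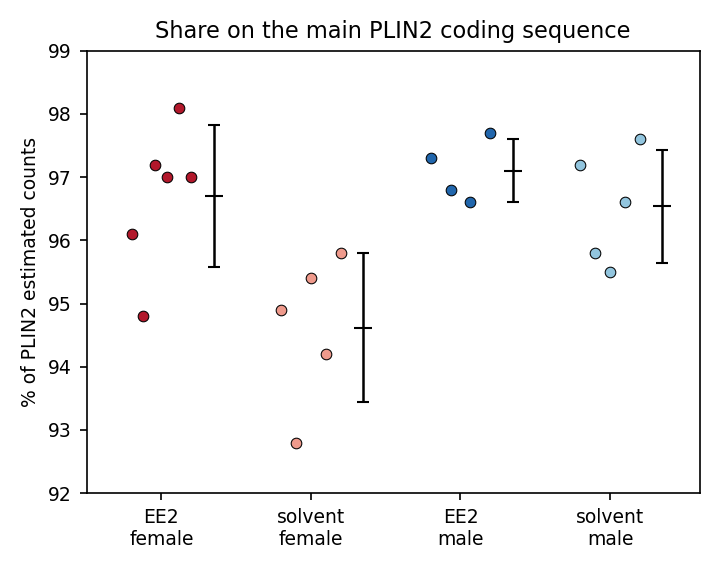
Share of PLIN2 estimated counts assigned to its major coding sequence, in percent on an axis that does not start at 0, with a point per library and bars for the mean ± SD. Solvent females lie between 92.8% and 95.8%, and 5 of the 6 EE2 females lie above them, between 96.1% and 98.1%.

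FABP2 was low in nearly every EE2 embryo of both sexes and varied widely among solvent embryos. In EE2 females it had 2.04, 0.694, 4.27, 2.84, 5.62 and 0.909 CPM, against 4.94, 9.26, 7.29, 55.8 and 28.4 CPM in solvent females. In EE2 males it had 2.38, 1.94, 0.772 and 2.05 CPM, against 32.6, 18, 79.3, 2.33 and 33.0 CPM in solvent males. All but EE2 female 9 among the EE2 females lay below every solvent female. All but EE2 male 3 among the EE2 males lay below every solvent male, and the overlap there came from solvent male 7, whose 2.33 CPM is in the range of the EE2 embryos. The counts behind these levels ran from 21 to 2308 per library.

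Means of FABP2 were 2.73 ± 1.93 CPM in EE2 females (SD, n = 6) and 21.1 ± 21.5 CPM in solvent females (n = 5), and 1.79 ± 0.701 CPM in EE2 males (n = 4) and 33.1 ± 28.7 CPM in solvent males (n = 5). The spread was itself uneven: the highest library was 34.0 times the lowest in solvent males and 3.09 times in EE2 males. The EE2 effect was -2.93 on the log2 scale in females (SE 0.751), or 7.62-fold lower, and -4.21 in males (SE 0.942), or 18.5-fold lower. Without solvent female 9, the shallowest library and the one with the most FABP2 among solvent females, the female effect was -2.18, and without solvent male 4 the male effect was -3.58. Without EE2 male 3 the male effect was -4.37. The range over all libraries left out in turn was -3.27 to -2.18 in females and -4.51 to -3.58 in males, and limma voom gave -2.52 in females and -3.57 in males.

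For FABP2 the female effect minus the male effect was 1.28, with an SE of 1.13 that is close to the estimate itself. This difference of effects was 0.65 without solvent male 4 and 2.03 without solvent female 9. The female minus male difference was 0.62 in EE2 embryos (SE 0.865) and -0.66 in solvent embryos (SE 0.728). The second of these was -0.04 without solvent male 4 and -1.41 without solvent female 9. The solvent sexes overlapped throughout, with medians of 9.26 CPM in females and 32.6 CPM in males.

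Among the neighbours of FABP2 on chromosome 4, 2 rose and 1 fell in EE2 females, beside 10.2% and 10.1% of all genes. In EE2 males 2 rose and 0 fell, beside 2.24% and 1.03% of all genes. All 10 neighbours were tested, and their median EE2 effect was 0.34 in females and 0.10 in males. SEC24D, a subunit of the vesicle coat that exports proteins from the endoplasmic reticulum, rose by 0.81 in females (adjusted p = 1.29e-05, edgeR) and 0.51 in males (adjusted p = 0.00978). USP53, next to FABP2, was called lower in females at -0.37 (adjusted p = 0.012, edgeR), and had -0.08 in males (adjusted p = 0.79).

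Since FABP2 is known from the intestine, a list of 19 markers of enterocytes and intestinal epithelium was read beside it. Of these, 15 were measured and 10 tested. RBP2, an enterocyte retinol carrier, was at 0 in all 20 libraries, and the intestinal transcription factor CDX1 was at 0 in 19. Other markers were detected at low levels. CDX2 was at 0 in 1 library and reached 1.94 CPM. CDH17, VIL1, SI, LCT and SLC15A1 were found in every library, with medians of 0.376 to 4.19 CPM. The summed level of the list ran from 585.6 to 978.8 CPM in EE2 females, against 682.8 to 957.2 CPM in solvent females. It ran from 612.5 to 631.9 CPM in EE2 males, against 780.5 to 1430.8 CPM in solvent males. Most of this sum came from APOA4, ANPEP and MTTP, which the liver also expresses.

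Individual intestinal markers moved in both directions. In EE2 females 3 of the 10 were called higher and 3 lower, beside 10.2% and 10.1% of all genes. In EE2 males 1 was called higher and 1 lower, beside 2.24% and 1.03% of all genes. The actin bundling protein of microvilli, VIL1, rose by 2.11 in females (adjusted p = 0.00338, edgeR) and had 0.42 in males (adjusted p = 0.758). The brush border disaccharidase SI rose by 3.73 in males (adjusted p = 0.0129, edgeR), a call lost without EE2 male 5, where the estimate was 2.95, and in limma voom. It had 1.73 in females (adjusted p = 0.082). MTTP, which loads lipid onto nascent lipoproteins, fell by 0.84 in females (adjusted p = 0.000298, edgeR). APOA4, an apolipoprotein, fell by 2.03 in males (adjusted p = 0.0138, edgeR), a call lost without EE2 male 6 and in a fit of the males alone, and had 0.26 in females (adjusted p = 0.684). The part of intestinal cells in the FABP2 levels was not tested.

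The other carriers of the FABP family took other courses. Of 12 listed relatives, 4 were measured and all 4 were tested. In both sexes 2 rose, beside 10.2% of all genes in females and 2.24% in males, and 2 were not called in either. With 4 genes this count is not read as a property of the family. FABP7, the carrier known from the developing brain, had a mean of 123.0 ± 75.5 CPM with EE2 and 25.7 ± 9.09 CPM with solvent in females (± SD). In males the means were 121.4 ± 59.7 CPM with EE2 and 18.6 ± 5.54 CPM with solvent. The increase was 2.26 in females (SE 0.41, adjusted p = 0.000726, edgeR) and 2.71 in males (SE 0.44, adjusted p = 0.00123), and all 4 EE2 males lay above all 5 solvent males, as they did for 3.35% of all genes tested.

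FABP3, the carrier of heart and skeletal muscle, averaged 6.24 ± 2.86 CPM in EE2 females against 1.54 ± 0.526 CPM in solvent females, a rise of 2.03 (SE 0.483, adjusted p = 0.0053, edgeR). In males it averaged 5.68 ± 4.37 CPM with EE2 against 1.25 ± 0.538 CPM with solvent, a rise of 2.18 (SE 0.513, adjusted p = 0.0211). The male call was lost without EE2 male 4 or EE2 male 5, in limma voom and in a fit of the males alone, and its estimate ran from 1.62 to 2.48 over the libraries left out in turn. The summed level of striated muscle markers was 10.1 to 27.4 CPM in EE2 females and 19.5 to 50.9 CPM in solvent females, and 18 to 194.8 CPM in EE2 males and 22.5 to 32.8 CPM in solvent males, and its part in the FABP3 values was not tested.

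FABP1, the carrier of hepatocytes, was not called: its EE2 effect was 1.42 in females (SE 0.625, adjusted p = 0.122, edgeR) and -0.32 in males (SE 0.68, adjusted p = 0.867). Its 6 EE2 females ran from 3.22 to 40.3 CPM with a median of 26.5, against 3.22 to 16.2 CPM in solvent females. FABP6, the bile acid carrier of the ileum, had 0.09 in females and -0.22 in males (adjusted p = 0.904 and 0.861, edgeR). None of the 4 was called for a difference between the female and the male effect, by edgeR, DESeq2 or limma voom, and none reached an unadjusted p under 0.05.

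**Figure D4:**
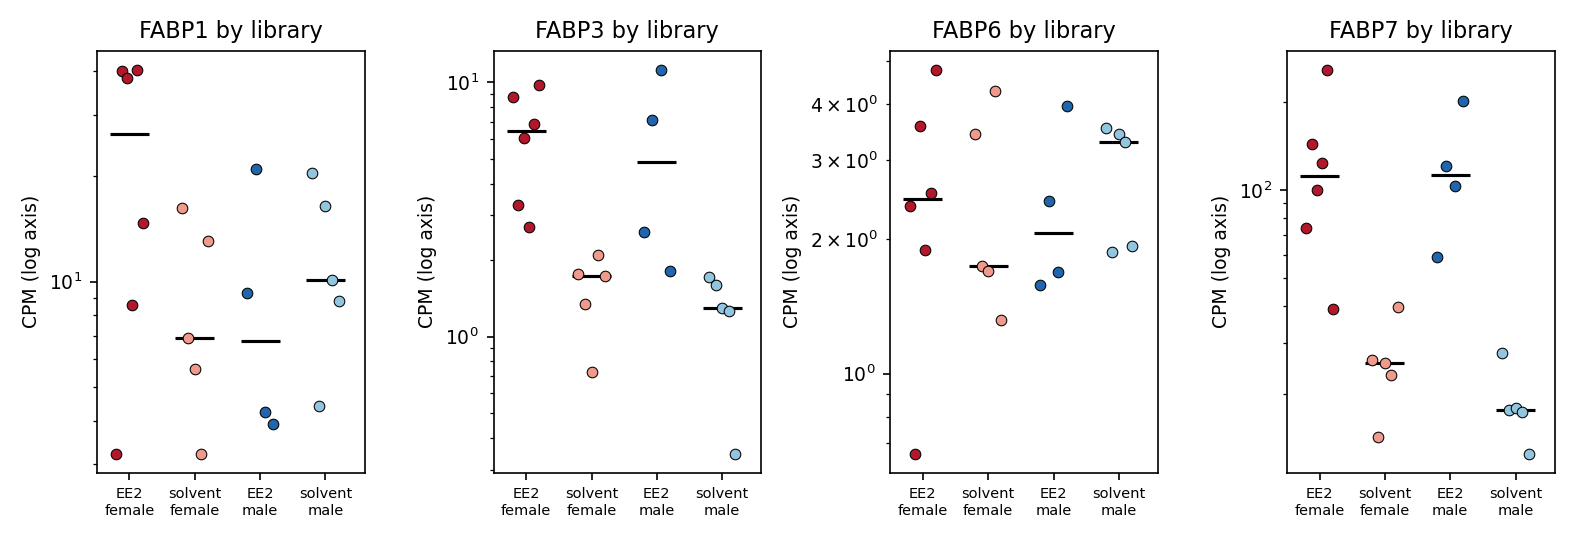
Levels of the 4 measured relatives of FABP2 in CPM on log axes, a panel per gene, with a point per library, the 4 groups along the horizontal axis and a line at each median. FABP7 and FABP3 medians are higher in both EE2 groups, with FABP7 at 112.0 CPM in EE2 females against 25.5 CPM in solvent females; FABP1 and FABP6 groups overlap.

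Of 5 other perilipins listed, PLIN1, the coat protein of fat cell droplets, was measured. It averaged between 0.145 and 0.298 CPM in the 4 groups and was not called for EE2 (-0.34 in females and 0.09 in males, adjusted p = 0.763 and 0.969, edgeR).

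Among the genes that build lipid droplets or sit on their surface, those called for EE2 were lower. Of 14 tested, 0 rose and 3 fell in EE2 females (21.4%), beside 10.2% of all genes higher and 10.1% lower. In EE2 males 0 rose and 1 fell (7.14%), beside 2.24% of all genes higher and 1.03% lower. Median effects were 0.05 and -0.05, and with so few genes these shares are not read as a property of the list. CIDEC, which drives the fusion of small droplets into large ones, averaged 20.4 ± 12.4 CPM in EE2 females against 40.4 ± 7.49 CPM in solvent females. It averaged 19.9 ± 1.99 CPM in EE2 males against 47.8 ± 10.8 CPM in solvent males, and all 4 EE2 males lay below all 5 solvent males, as they did for 2.59% of all genes tested. Its effect was -0.99 in females (SE 0.268, adjusted p = 0.0132, edgeR) and -1.26 in males (SE 0.306, adjusted p = 0.0258). The male call was lost without EE2 male 4, 5 or 6 or solvent male 2 or 4, with estimates from -1.34 to -1.15. In females EE2 female 8 had 44.6 CPM, within the range of solvent females, and without it the female effect was -1.38. The 6 measured adipocyte markers, CIDEC among them, summed to 136.5 to 169.2 CPM in EE2 females against 271.6 to 357.1 CPM in solvent females, and to 165.8 to 248.5 CPM in EE2 males against 250.4 to 280.1 CPM in solvent males. CEBPA, a factor that hepatocytes also express, and CIDEC made up most of this sum, with medians over the libraries of 193.4 and 33.5 CPM, while ADIPOQ, PLIN1, LIPE and PPARG had medians of 0.172 to 2.16 CPM. Of the 6, CIDEC and CEBPA (-1.02, adjusted p = 4.61e-06, edgeR) were called lower in females, beside 10.1% of all genes. CIDEC alone was called lower in males, beside 1.03% of all genes. The list medians were -0.23 in females and 0.20 in males. The part of fat cells in the droplet genes was not tested.

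CIDEA, a relative of CIDEC, fell by 0.42 in females (SE 0.112, adjusted p = 0.0115, edgeR) and had -0.29 in males (adjusted p = 0.233). TMEM159, the partner of seipin where droplets form, fell by 0.74 in females (SE 0.216, adjusted p = 0.0191, edgeR) and had -0.55 in males (adjusted p = 0.252). The TMEM159 call was lost without solvent female 6 or 10. In females these 3 genes, the only ones of the 14 that were called, fell, and PLIN2 had a positive EE2 effect. The other 11 were not called there, and the list median was 0.05. In males the effects of CIDEC, CIDEA, TMEM159 and PLIN2 (-0.53) were all negative, though CIDEA and TMEM159 were not called there. None of the 14 was called for a difference between the female and the male effect (2 at an unadjusted p under 0.05, 0 by DESeq2 and 0 by limma voom).

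Among 12 tested genes of lipolysis and lipophagy, 4 fell and 0 rose in EE2 females, beside 10.1% and 10.2% of all genes, with a median of -0.14. In males edgeR called 0, with 4 at an unadjusted p under 0.05 and 0 calls by DESeq2 or limma voom, and the median was -0.16. LPL, the lipoprotein lipase, fell by 1.63 in females (SE 0.181, adjusted p = 4.67e-06, edgeR) and had -0.49 in males (adjusted p = 0.206). The difference between the 2 effects of LPL was -1.13 (SE 0.266, adjusted p = 0.0456), a call lost when any 1 of 15 libraries was left out, where it lay between -1.29 and -0.91, and also lost in limma voom and with no filter on low counts. LIPC, the hepatic lipase, fell by 0.95 in females (adjusted p = 2.31e-05) and PNPLA7, a lysophospholipase, by 0.69 (adjusted p = 0.000948). G0S2, which inhibits the droplet lipase PNPLA2, fell by 1.03 in females (adjusted p = 0.0282, edgeR), lost without EE2 female 1, 7 or 10 or solvent female 5 or 9, where the lowest and highest estimates were -1.21 and -0.68, and in a fit of the females alone. PNPLA2 itself had -0.20 in females and -0.35 in males (adjusted p = 0.259 and 0.177).

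The enzymes that assemble triglyceride were called in both directions, with AGPAT2 higher in both sexes under every library left out. Of 11 tested, 2 rose and 2 fell in EE2 females, beside 10.2% and 10.1% of all genes, with a median of -0.13. In EE2 males 3 rose and 0 fell, beside 2.24% and 1.03% of all genes, with a median of 0.07; limma voom made 1 of the calls in males. AGPAT2, which adds the second acyl chain to the glycerol backbone, rose by 2.43 in females (SE 0.189, adjusted p = 7.8e-08, edgeR) and 1.82 in males (SE 0.196, adjusted p = 7.12e-06). LPIN1, the phosphatase that makes diacylglycerol, averaged 9.96 ± 3.07 CPM in EE2 females against 1.15 ± 0.0835 CPM in solvent females, and 4.08 ± 1.97 CPM in EE2 males against 1.71 ± 0.539 CPM in solvent males. It rose by 3.12 in females (SE 0.306, adjusted p = 1.25e-06, edgeR) and 1.26 in males (SE 0.306, adjusted p = 0.0256).

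LPIN1 was the 1 gene of the triglyceride list called for a larger effect in females (1.86, SE 0.425, adjusted p = 0.0417, edgeR), lost when any 1 of 16 libraries was left out, with estimates from 1.63 to 2.21, and also lost in limma voom. Its male call was lost without EE2 male 4 or 5 or solvent male 4 or 7, in limma voom and in a fit of the males alone, and over the libraries left out its estimate ran from 0.92 to 1.49. AGPAT3, a relative of AGPAT2, fell by 0.47 in females (adjusted p = 0.00329, edgeR) and had -0.04 in males. GPAM, which starts the pathway at the mitochondrion, had -0.07 in females and rose by 0.44 in males (adjusted p = 0.0422, edgeR), a male call lost when any 1 of 10 libraries was left out, in limma voom and in a fit of the males alone.

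Genes of fatty acid uptake and activation, which act on the fatty acids that FABP2 carries, were called in both directions. Of 14 tested, 1 rose and 4 fell in EE2 females (median -0.08), beside 10.2% and 10.1% of all genes. In EE2 males 1 rose and 1 fell (median 0.12), beside 2.24% and 1.03% of all genes. The acyl-CoA synthetase ACSL1 fell by 1.14 in females (SE 0.156, adjusted p = 3.9e-05, edgeR) and 0.75 in males (SE 0.175, adjusted p = 0.0196); the male call was lost without EE2 male 4, 5 or 6 or solvent male 7 and in a fit of the males alone. ACSL5, another of these synthetases, fell by 0.94 in females (adjusted p = 0.00263) and had 0.07 in males. The fatty acid transporter CD36 fell by 0.64 in females (adjusted p = 0.00366, edgeR) and had -0.19 in males (adjusted p = 0.617). ACSBG2, a synthetase of the bubblegum family, rose by 3.27 in females (SE 0.581, adjusted p = 0.000603, edgeR) and had 1.84 in males (adjusted p = 0.0963).

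In mammals PLIN2 and several FABP genes are induced by the fatty acid sensor PPARA, and HNF4A, a factor of gut and liver, acts on FABP2. Of 19 tested regulators of droplet and carrier genes, 1 rose and 7 fell in EE2 females (median -0.24), beside 10.2% and 10.1% of all genes. In EE2 males 2 rose and 1 fell (median -0.09), beside 2.24% and 1.03% of all genes. PPARA fell by 0.92 in females (SE 0.13, adjusted p = 5.69e-05, edgeR) and had -0.39 in males (adjusted p = 0.169). HNF4A fell by 0.67 in females (SE 0.0938, adjusted p = 5.58e-05) and had -0.16 in males (adjusted p = 0.475). CREB3L3, a membrane-bound factor that acts with PPARA in the fasting liver, fell by 1.01 in females (adjusted p = 2.59e-05, edgeR) and 0.67 in males (adjusted p = 0.0136, lost without EE2 male 5). None of the 19 was called for a difference between the sexes' effects (4 at an unadjusted p under 0.05, 1 by DESeq2, 0 by limma voom).

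Most of the listed targets of PPARA were called lower in females. The list was chosen with earlier results of these data known, so its shares are given as a description. Of 17 tested, 15 fell and 0 rose in EE2 females (median -0.63), beside 10.1% of all genes lower there. In EE2 males 4 fell and 0 rose (median -0.30), beside 1.03% of all genes. ETFDH, which passes electrons from fatty acid oxidation to the respiratory chain, fell by 0.94 in females (adjusted p = 3.53e-05, edgeR) and had -0.23 in males (adjusted p = 0.452). ACAA2, a mitochondrial thiolase of the same pathway, fell by 0.57 in females (adjusted p = 4.83e-05) and had -0.03 in males (adjusted p = 0.916). The ACAA2 effects differed by -0.55 (SE 0.119, adjusted p = 0.0353, edgeR), a call lost when any 1 of 11 libraries was left out. PLIN2 had a positive effect in females, where 15 of these targets fell. In males its effect was negative (-0.53), and there 4 targets fell and 0 rose. FABP2 had a negative effect in both sexes. Both genes were chosen with these values known, and the part of PPARA in their levels was not tested. Of the 8 hepatocyte markers 6 fell and 1 rose in EE2 females, beside 10.1% and 10.2% of all genes. In EE2 males 2 fell and 1 rose, beside 1.03% and 2.24% of all genes. The marker that rose was APOB, the backbone protein of very low density lipoprotein, by 1.47 in females (adjusted p = 1.51e-06, edgeR) and 1.86 in males (adjusted p = 2.69e-07). The part of hepatocyte content in these values was not tested. CREB3L3 stands in both the list of regulators and the list of targets.

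**Figure D5:**
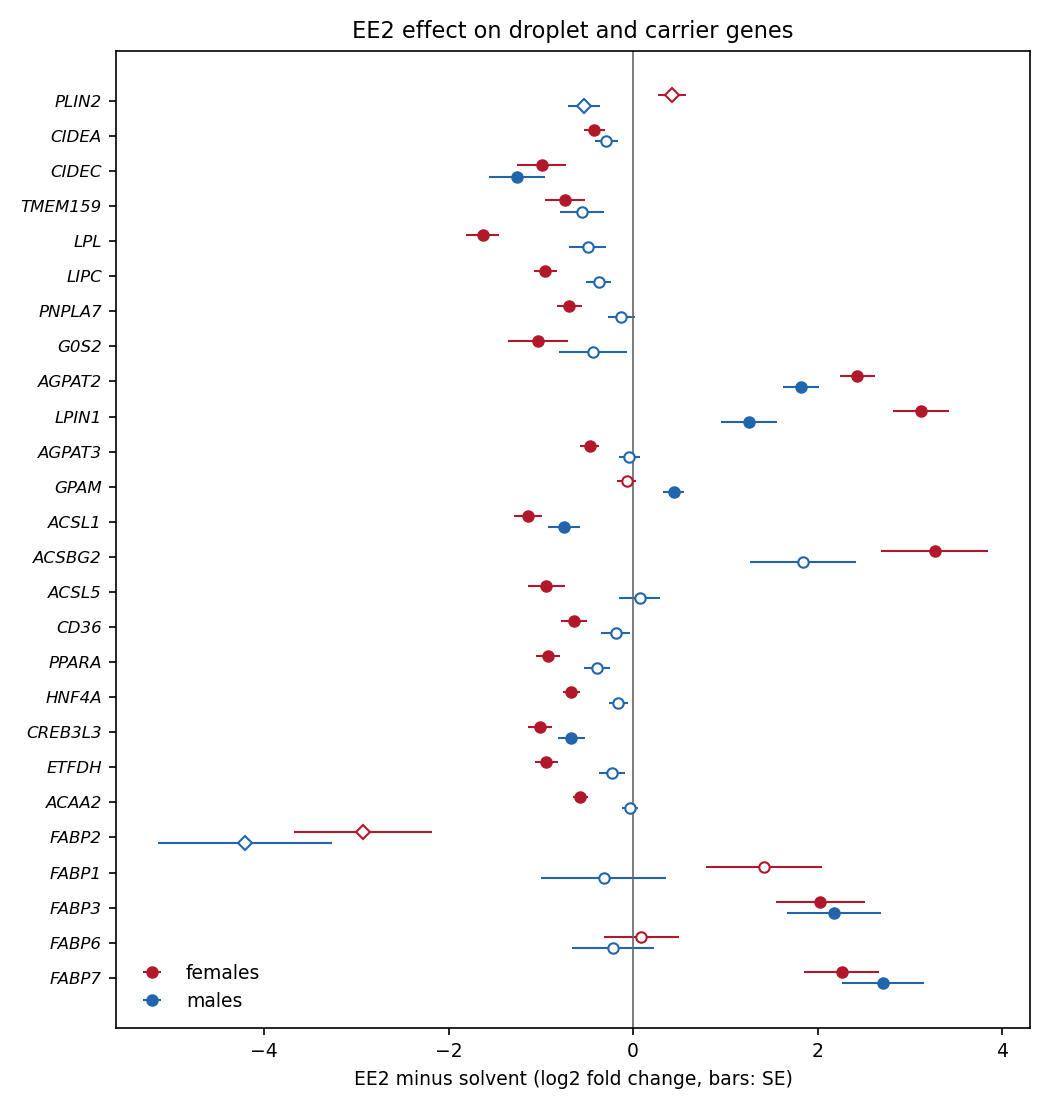
EE2 minus solvent log2 fold changes of PLIN2, FABP2, the FABP relatives and genes named from the pathway lists, with females in red above males in blue and bars of 1 SE. Diamonds mark PLIN2 and FABP2, which carry no test; for the other genes filled circles were called and open circles were not. PLIN2 is at 0.42 in females and -0.53 in males, and FABP2 is at -2.93 in females and -4.21 in males.

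Within the groups, PLIN2 and FABP2 showed no firm relation to each other. With each group's mean taken off, Pearson's r over the 20 libraries was 0.399 (permutation p = 0.133) and Spearman's rho 0.391 (permutation p = 0.125); 1 relation was computed. Without solvent female 10 and solvent male 2, the libraries farthest from the median on PLIN2, r was 0.406 (permutation p = 0.122).

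The genes most like each of them were ranked among 12019 genes with a mean of at least 1 CPM. These values come from the same 20 libraries and share their depth and scaling, so they are descriptions. With group means taken off, PLIN2 was most like B3GNT2 (r = 0.79), SLC2A9 (0.79), TEX2 (0.78), LOC107324290 (0.73) and LOC107307275 (0.73), and least like LRRC4 (-0.82), PRR7 (-0.81) and CAAP1 (-0.79). B3GNT2 extends sugar chains and SLC2A9 transports urate. FABP2 was most like CPQ (0.82), FBXO7 (0.78), GFER (0.76), C8H1orf53 (0.75) and LOC107307319 (0.75), and least like SGSM2 (-0.78), TRAPPC11 (-0.76) and PHETA2 (-0.73).

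With the group means left in, the closest genes to PLIN2 were AGTPBP1 (0.86), TMEM41A (0.86), CNTLN (0.86), SRFBP1 (0.85) and KIAA0825 (0.84). All of these but TMEM41A, 4 of 5, lie on Z, where 4.46% of the genes compared lie, and CNTLN is 1 of the neighbours of PLIN2 described above. Among the 5 closest to FABP2 were MFSD2A (0.86), a carrier of lysophospholipids into cells, CFAP20 (0.82), FPGS (0.80) and AGXT (0.80). Both sets share the sex or treatment pattern of the gene they were ranked against.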

How the data were processed

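RNA of 20 left-lobe livers was sequenced. The deposited values are the authors' estimated counts for each coding sequence, in 2 tables; the submitters' processing notes name kallisto. No version, transcript set or genome build is given in the sources used here. This software shares a read among the sequences it fits, so 52.64% of values were whole. Both tables held identical values in all 40934 rows. Rows were summed per NCBI gene (16066 genes) and rounded. filterByExpr (minimum count 10, minimum total 15) left 13501 genes and removed 2565.

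All libraries entered 1 edgeR 4.0.16 quasi-likelihood fit (R 4.3.3, TMM, 4 group means, robust, two-sided). Calls were made at a Benjamini-Hochberg adjusted p under 0.05 over all genes tested, and log2 fold changes are EE2 minus solvent or female minus male. The biological coefficient of variation was 0.245. Each SE from edgeR is the size of the log2 fold change divided by the square root of the F statistic of its test. Coding sequence shares were compared by exact permutation (SciPy 1.17.1). DESeq2 1.42.0, limma 3.58.1 voom, other scalings and filters, fits of the groups compared alone, a replicate block, the second table and leaving out each library were alternatives. The fit was tested on simulated data.

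The genes described and the lists were chosen with earlier results of these data known. Genes named from a list are all measured members of the perilipin and FABP families, up to 4 genes per other list with the smallest adjusted p for EE2 and up to 2 called for the sex difference in effect; for likeness, the 5 highest and 3 lowest. Some genes that these rules pick are not reported here. Neighbours were taken by position, 5 on either side; which to name, PNPLA2 and MLLT3 among them, was chosen after their values were seen. Lengths were not used, so levels are not compared between genes.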

Additional observations from a re-analysis of the deposited data

Results flagged for a closer look

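CIDEC, the droplet fusion gene, had 1 library far from the rest of its group: EE2 female 8 held 44.6 CPM, beyond the gap that Dixon's test allows for 6 samples, while the other EE2 females held 12.3 to 21.3 CPM. In 40 groups examined (9 genes and the PLIN2 coding sequence share, by sex and treatment) this was the 1 such library, and chance alone flags about 5% of groups. Without EE2 female 8 the female effect of EE2 on CIDEC was -1.38, beside -0.99 with it.

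For several genes the EE2 effects in females and males differed by the interaction term of the edgeR fit. Among the genes of lipid handling, the female minus male effect was 1.86 for LPIN1 (adjusted p = 0.0417), -1.13 for LPL (adjusted p = 0.0456) and -0.55 for ACAA2 (adjusted p = 0.0353). The LPIN1 call was lost when any 1 of 16 libraries was left out, the LPL call when any 1 of 15 was, and the ACAA2 call when any 1 of 11 was. limma voom did not make the LPIN1 and LPL calls. Among the marker genes it was -1.74 for ALB (adjusted p = 0.0232) and -0.84 for AMBP (adjusted p = 0.0334), both hepatocyte products, 2.37 for SPP1 (adjusted p = 0.0232), a cholangiocyte marker, and -2.94 for TNNC1 (adjusted p = 0.0178), a troponin. The AMBP call was lost when any 1 of 8 libraries was left out and the SPP1 call without EE2 male 4; the lowest and highest SPP1 values over the libraries left out were 1.95 and 2.51.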

How the results depend on the processing

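The EE2 effects on PLIN2 kept their signs in every alternative run. When each library was left out, they were 0.34 to 0.53 in females and -0.62 to -0.43 in males. Their mean over the sexes then lay between -0.1 and 0.00. The female minus male difference of PLIN2 then lay between -0.36 and -0.18 with EE2 and between -1.33 and -1.12 with solvent. With the replicate block that difference was -0.4 with EE2. FABP2 effects stayed negative in both sexes in every alternative run. When each library was left out, their mean lay between -3.74 and -3.19 and the difference of effects between 0.65 and 2.03. The sex difference of FABP2 then lay between 0.27 and 0.82 with EE2 and between -1.41 and -0.04 with solvent. Outside these ranges, limma voom gave a mean of -3.05 and the replicate block a difference of effects of 0.27.

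Counts of called genes moved more. DESeq2 called 768 genes for EE2 in males (edgeR 441), 454 for the difference of effects (143) and 1311 between the sexes with EE2 (873), and a fit of the males alone called 194. The causes were not tested. Leaving out each library gave 234 to 647 genes in males, with 254 without EE2 male 4 and 234 without EE2 male 5. It gave 2081 to 2852 in females, 2086 to 3061 for the mean of the sexes and 21 to 191 for the difference of effects. It gave 446 to 956 between the sexes with EE2, the lowest without EE2 male 3, and 202 to 234 with solvent. For the difference of effects, removing any of 15 libraries moved the count by over 1.5 times.

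The share on the major PLIN2 coding sequence differed by 0.347 to 0.857 points for EE2 in males, 1.64 to 2.47 in females, -0.681 to -0.021 between the sexes with EE2 and -2.18 to -1.45 with solvent over the libraries left out.

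Replicate numbers in the labels run across both sexes, and of 10 same-numbered pairs 1 correlated above 0.1 (range -0.0169 to 0.132), so they were not taken as pairs. A replicate block gave 52 genes in males, 877 in females, 99 between the sexes with EE2 and 47 with solvent (edgeR). For the difference of effects edgeR called 0 with the block, against 143 without it. With the block, 1080 of 13501 genes had an unadjusted p under 0.05 for that difference. Most same-numbered pairs joined an EE2 embryo of 1 sex to a solvent embryo of the other, as in numbers 1, 2, 7 and 8. The block is thus mixed with sex, and its part in the loss of calls was not tested. PLIN2 was 0.43 in females and -0.51 in males with the replicate block, and FABP2 -3.06 and -3.33, while its sex difference with EE2 was -0.26 in place of 0.62.

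The lowest FABP2 count was 21, in EE2 male 5, a library of 26776988 estimated counts. The lowest level, 0.694 CPM in EE2 female 2, rests on 23 counts. Solvent female 9, the shallowest library, held 848 FABP2 counts. The SE of the female FABP2 effect, 0.751, was 0.643 without solvent male 7 and 0.711 without solvent female 9.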
